A study of Mus musculus with 8 samples.

Results

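The 46 genes described here are type I interferon-induced antiviral genes, measured by RNA sequencing of mouse liver. They were found by symbol in the deposited table, which lists 27179 genes, and all 46 symbols were present. By role they were divided into 25 effectors, which act on viral RNA, viral proteins or infected cells, 7 nucleic acid sensors with their cofactors, 4 regulators of interferon signalling, and 10 other interferon-induced genes. The list was chosen by function and with the authors' comparison of the genotypes in these same libraries in view, so that difference supports nothing here and no test of it is given.

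Livers came from 8 adult male mice of strain C57BL/6NHsd after a 6 h fast, 4 wild-type and 4 homozygous for V227A, a valine to alanine change in the nuclear receptor PPARα. The change was made in zygotes with an adenine base editor, is carried in the germline and so is present in every tissue. The colony goes back to a founder bred to the same strain and was kept by crossing heterozygotes. Nothing in the descriptions names an infection or an interferon treatment. The deposited table holds 0 columns of values per library, and every level given below is therefore the authors' average over both genotypes, with no spread between mice and no comparison of V227A with wild-type.

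Type I interferons are secreted proteins that a cell releases when its sensors meet viral nucleic acid. They bind the receptor pair Ifnar1 and Ifnar2, whose kinases Jak1 and Tyk2 pass the signal on to Stat2. Stat2 and Irf9 are part of the complex ISGF3, which binds an element named the ISRE in front of its target genes, and the targets include more of the sensors and of ISGF3 itself. In liver, hepatocytes, Kupffer cells and endothelial cells all carry the receptor.

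The ISRE is built around a pair of GAAA repeats, and the reference promoters of the IFIT and OAS genes show it well. The promoters below are RefSeq sequences of build GRCm38.p6, 300 bases each from 250 before the start site, written 5′ to 3′ on the strand of the gene. Capitals mark each match to GAAANNGAAA on either strand, so a match on the other strand reads TTTCNNTTTC. *Ifit3* (chr19:34583279-34583578, plus strand) and *Ifit3b* (chr19:34607707-34608006, plus strand) are shown because their promoters are nearly the same where they align, while their levels are not.
Ifit3: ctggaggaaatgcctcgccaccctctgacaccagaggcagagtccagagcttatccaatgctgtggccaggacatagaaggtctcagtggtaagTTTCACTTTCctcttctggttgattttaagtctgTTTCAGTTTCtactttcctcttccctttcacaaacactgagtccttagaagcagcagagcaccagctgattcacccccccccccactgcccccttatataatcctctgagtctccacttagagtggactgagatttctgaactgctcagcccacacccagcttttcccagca
Ifit3b: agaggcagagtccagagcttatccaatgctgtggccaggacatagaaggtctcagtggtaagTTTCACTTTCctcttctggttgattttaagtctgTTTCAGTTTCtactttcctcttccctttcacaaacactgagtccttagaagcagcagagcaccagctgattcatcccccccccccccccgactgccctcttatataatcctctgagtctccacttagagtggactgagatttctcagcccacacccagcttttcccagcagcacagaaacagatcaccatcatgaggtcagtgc
Of 260 aligned bases, 258 were identical in this pair (99.2%), and each promoter held 2 matches. The same 2 matches begin at -156 and -122 in *Ifit3* and at -188 and -154 in *Ifit3b*, since the annotated start sites differ. In each window 40 bases stayed unaligned, at an end and in gaps, and the 99.2% leaves them out.

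*Oas1a* (chr5:120907476-120907775, minus strand) and *Oas1g* (chr5:120887564-120887863, minus strand) form a second pair of close copies.
Oas1a: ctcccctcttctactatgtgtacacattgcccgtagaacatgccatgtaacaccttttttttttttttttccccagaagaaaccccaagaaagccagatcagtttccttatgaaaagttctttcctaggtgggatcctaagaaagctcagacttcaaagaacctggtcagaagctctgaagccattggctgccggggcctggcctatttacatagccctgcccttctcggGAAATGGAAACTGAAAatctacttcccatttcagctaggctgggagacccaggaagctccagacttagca
Oas1g: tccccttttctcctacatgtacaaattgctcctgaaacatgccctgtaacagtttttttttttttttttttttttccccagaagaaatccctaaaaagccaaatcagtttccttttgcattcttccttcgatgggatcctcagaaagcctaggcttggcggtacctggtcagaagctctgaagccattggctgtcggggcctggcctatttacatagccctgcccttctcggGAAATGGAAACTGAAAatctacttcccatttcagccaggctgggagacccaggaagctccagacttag
Here 261 of 294 aligned bases were identical (88.8%). In both promoters the 2 matches overlap in a single stretch of 16 bases that starts at -20 relative to the start site in *Oas1a* and at -18 in *Oas1g*.

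RefSeq promoters were found for 33 of the 46 members, and 14 of these held at least 1 match (42.4%, exact 95% interval 25.5 to 60.8%). The same search found a match in 944 of 27025 genes with a promoter in the table (3.49%). Taking only genes with reads in these libraries, the share was 430 of 13556 (3.17%). A further requirement of the bases CT after the second repeat, GAAANNGAAACT, left 7 of 33 members (21.2%) against 73 of all 27025 genes (0.270%). At least 2 matches were present in 8 of 33 members (24.2%, exact 95% interval 11.1 to 42.3%) and in 68 of all genes (0.252%). The intervals treat promoters as independent. *Ifit3* with *Ifit3b* and *Oas1a* with *Oas1g* are close copies with the same matches, and each gene was counted separately in all these shares. The intervals may therefore be too narrow. A match is a run of letters in the reference, not a measured binding site, and the 13 members not found in the promoter table were *Tor3a*, *Parp9*, *Rtp4*, *Oas1b*, *Parp14*, *Dhx58*, *Ifi204*, *Mx2*, *Zbp1*, *Ifi27*, *Mx1*, *Oas2* and *Usp18*.

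Matches occurred in every role, in 9 of 19 effectors, 2 of 4 sensors, 1 of 3 regulators and 2 of 7 other genes with a promoter. The stretches of the remaining effectors are given with 6 bases on each side, since they show how the repeats are arranged. *Isg15*, the ubiquitin-like protein that is attached to other proteins during the response, had 3 overlapping matches in a single stretch of 22 bases (chr4:156200869-156200902, minus strand, first capital at -78). *Bst2*, which tethers budding virions to the cell surface, had 2 overlapping ones (chr8:71537581-71537608, minus strand, -130).
Isg15: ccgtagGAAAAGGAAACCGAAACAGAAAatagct
Bst2: ttccagGAAAATGAAACTGAAAggctgc
In *Ifit1* the 2 matches were separate (chr19:34640779-34640800 and chr19:34640798-34640819, plus strand, -104 and -85).
Ifit1: cttcagTTTCACTTTCcagtct
Ifit1: tctcagTTTCAGTTTCtcactg
*Oas3* (chr5:120777719-120777740, minus strand, -75) and *Rsad2* (chr12:26456557-26456578, minus strand, -120) held 1 match each.
Oas3: ggaggaGAAAACGAAAgtgaag
Rsad2: tccaacTTTCATTTTCagaaaa

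The sensors *Eif2ak2* (chr17:78882539-78882560, minus strand, 18) and *Ifih1* (chr2:62646208-62646229, minus strand, 32) differed from the effectors in position, since their matches lay after the start site.
Eif2ak2: cgccggGAAAACGAAAcagaag
Ifih1: agaatcGAAACAGAAAccgatc
*Stat2*, the only regulator with a match (chr10:128270270-128270291, plus strand, -222), had the most distant one.
Stat2: ccctggTTTCAGTTTCctttcc
Among the other genes *Trim30a* (chr7:104465214-104465235, minus strand, -36) had 1 match and *Lgals9* had 2, 1 before and 1 after the start site (chr11:78984964-78984985 and chr11:78984894-78984915, minus strand, -55 and 15).
Trim30a: ctttagTTTCTTTTTCtcagtt
Lgals9: atcagcTTTCTTTTTCtctaga
Lgals9: ctgtggTTTCTGTTTCctagct
Of 23 matches in all, 20 lay before the start site and 3 at or after it. The median level was 2.48 CPM per kb of exon in the 14 members with a match and 1.27 in the 19 without, a description with no test.

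**Figure D1:**
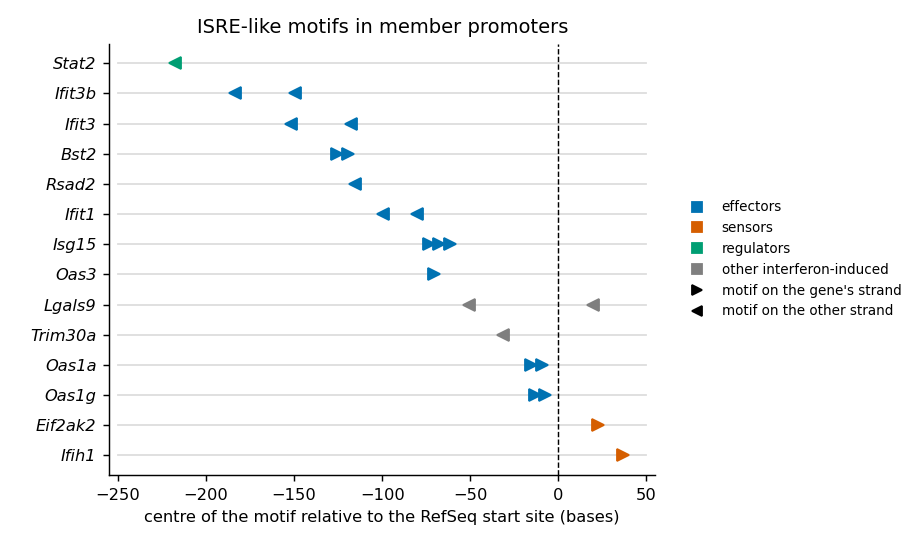
Positions of GAAANNGAAA matches in the promoters of the 14 members that have one. The x axis is the centre of each match in bases from the RefSeq start site (dashed line), each row is a gene, triangles point along the strand that carries GAAANNGAAA, and colours give the role; 20 of 23 matches lie left of the start site.

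Levels are given as CPM, read counts scaled to library size, recovered from the authors' average log2 CPM and, wherever genes are compared with each other, as CPM per kb of exon. The intervals beside them are exact 95% Poisson intervals on the estimated reads over all 8 libraries and cover counting error only. Of the 27179 genes, 18937 had reads, at a mean effective library size of 27473997 reads, and the median gene with reads and a known exon length stood at 1.07 CPM per kb (quartiles 0.0728 and 5.44). Liver identity was clear from its markers, with albumin (*Alb*) at 29709 CPM per kb and the lowest of 6 hepatocyte markers, *Cps1*, at 332 CPM per kb. In bulk tissue, fewer cells of a type and less RNA per cell cannot be told apart.

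All 46 members had reads, from 22.0 per library for *Oas1g* to 11705 for *Lgals9*, with a median of 193 and 13 members under 100. On the per-kb scale 32 of 46 stood above the median gene, 13 above the third quartile and 4 above the 90th percentile (18.6 CPM per kb), and 0 lay below the first quartile. This place among genes depends on the reference, since only 16 of 46 were above the median of the 11540 genes with an average log2 CPM of at least 0. The median member stood at 2.02 CPM per kb. Dividing by the longest transcript in place of all exons raised 10 members by more than 1.5 times, *Oasl2*, *Sp100*, *Herc6*, *Xaf1*, *Isg20*, *Usp18*, *Ifi204*, *Phf11d*, *Ifi44* and *Ifi27*, so that places between close neighbours in the order depend on the length. Between the highest member, *Lgals9*, and the lowest, *Oas3*, levels per kb differed 1749-fold. The 46 genes summed to 1222 CPM, of which *Lgals9* held 34.9% and the 5 most abundant by CPM together 60.9%.

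**Figure D2:**
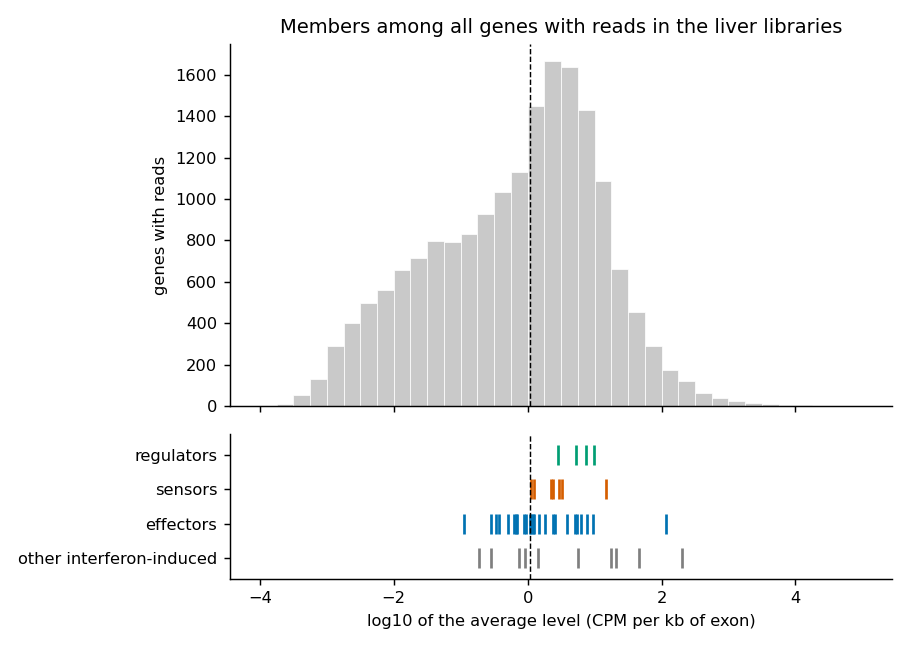
Histogram of the average level of all genes with reads (upper panel, genes per bin, x axis log10 of CPM per kb of exon) with each member as a tick by role (lower panel). The dashed line is the median gene at 1.07 CPM per kb. All 4 regulators and all 7 sensors lie to its right, and effectors spread on both sides, a place that depends on the reference.

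Regulators stood highest by role, with a median of 6.34 CPM per kb and 4 of 4 above the median gene. Against the median of genes with an average log2 CPM of at least 0 (3.42 CPM per kb), all but *Usp18* stood above. *Stat2*, the ISGF3 subunit that carries the transactivation domain, was at 9.94 CPM per kb (9.77 to 10.1), from an average log2 CPM of 5.88. *Irf9*, the DNA-binding partner in ISGF3, was at 5.26 CPM per kb (5.13 to 5.40). *Irf7*, a factor that drives interferon alpha genes and is itself interferon-induced, was at 7.41 CPM per kb (7.23 to 7.60). The intervals of these 3 genes did not overlap, but they cover counting error only and leave out the length. Annotated exons of *Irf7* fill its whole gene, 3776 bases, and its longest transcript is listed with 1 exon. Which transcripts the reads came from was not tested, so the place of *Irf7* per kb is uncertain. The level of *Irf9* depends on the length as well. With the longest transcript *Stat2* was at 13.4, *Irf7* at 8.64 and *Irf9* at 7.33 CPM per kb, in the same order. In CPM without length *Irf9* (28.3) and *Irf7* (28.0) were close, below *Stat2* (58.9). *Usp18*, which removes Isg15 from proteins and dampens signalling at Ifnar2, was lowest at 2.82 CPM per kb (2.69 to 2.96).

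The 7 sensors and cofactors had a median of 2.39 CPM per kb, and 7 of 7 stood above the median gene. This count depends on the reference. Against the median of genes with an average log2 CPM of at least 0 (3.42 CPM per kb), only *Trim25* stood above. *Trim25*, the ubiquitin ligase that assists RIG-I, stood apart at 15.1 CPM per kb (14.8 to 15.3), or 86.7 CPM. The RNA-binding kinase *Eif2ak2* (PKR), which halts translation, was at 3.30 CPM per kb (3.20 to 3.41). *Adar*, which edits double-stranded RNA, was at 2.93 CPM per kb (2.85 to 3.01). These were followed by the RNA helicases *Ifih1* (MDA5) at 2.39 CPM per kb (2.32 to 2.47) and *Dhx58* (LGP2) at 2.22 CPM per kb (2.12 to 2.34), whose intervals overlapped. The related helicase *Rigi*, outside the list, was at 2.22 CPM per kb as well. The place of *Rigi* depends on the length used: with the longest transcript it was at 4.03 CPM per kb, above *Ifih1* (3.57) and *Dhx58* (3.02). At the low end *Ifi204*, which detects DNA, was at 1.23 CPM per kb (1.15 to 1.31). *Zbp1*, which binds nucleic acid in the Z form, was at 1.12 CPM per kb (1.05 to 1.20), with an interval that overlapped that of *Ifi204* and included the median gene (1.07). Of the 100-base stretches of *Ifi204*, 10.7% also occur in other annotated genes, so its level is less certain.

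Effectors had the lowest median of the roles, 1.20 CPM per kb, with 15 of 25 above the median gene. With the length of the longest transcript in place of all exons this median was 1.89 CPM per kb, still the lowest. Against the higher reference of 3.42 CPM per kb, *Bst2*, *Parp9*, *Dtx3l*, *Isg15*, *Ifit3*, *Parp12* and *Oasl1* stood above. The share above was then larger for effectors than for sensors. The plot of members by role shows their spread, from *Oas3* to *Bst2*.

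**Figure D3:**
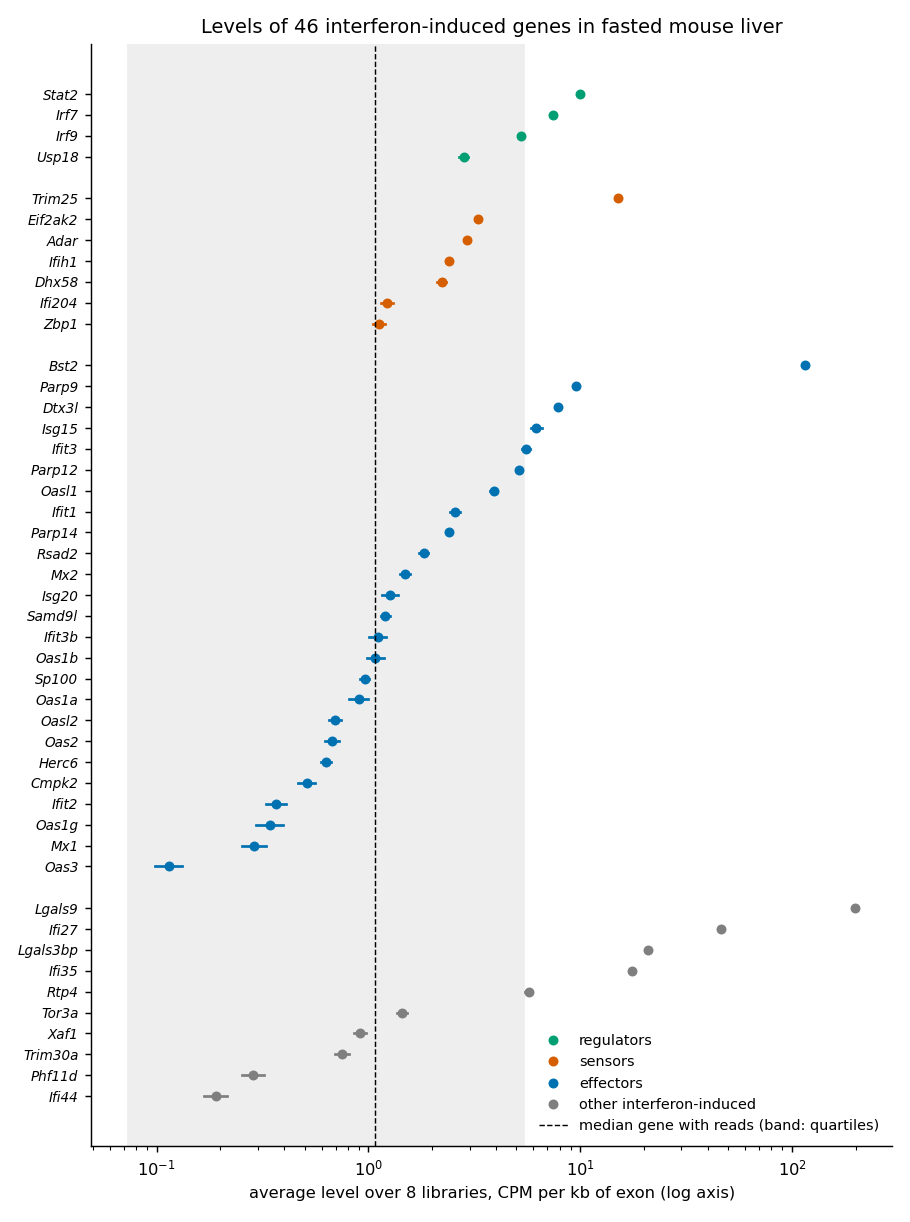
Average level of each of the 46 members over 8 libraries (x axis, CPM per kb of exon, log axis), sorted within role. Points are levels and bars are exact 95% Poisson intervals for counting error only; the dashed line and grey band are the median gene and the quartiles of genes with reads, 13 members stand right of the band and 0 left of it.

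The 7 OAS genes encode enzymes or enzyme-like proteins that bind double-stranded RNA, and the active ones make oligoadenylates as a second messenger. Their median was 0.693 CPM per kb and only *Oasl1* and *Oas1b* stood above the median gene, with the median gene (1.07 CPM per kb) inside the interval of *Oas1b*. *Oasl1*, which lacks synthetase activity and restrains Irf7 translation, was highest at 3.90 CPM per kb (3.74 to 4.06). Far below it came *Oas1b* at 1.08 CPM per kb (0.983 to 1.18), a gene that the GENCODE vM21 annotation lists as a polymorphic pseudogene. *Oas1a* at 0.898 CPM per kb (0.809 to 0.994) overlapped *Oas1b* in its interval. *Oasl2* was at 0.693 CPM per kb (0.650 to 0.738) and *Oas2* at 0.675 CPM per kb (0.625 to 0.729), which were not separable by counting. The place of *Oasl2* depends on the length used: with the longest transcript it was at 1.42 CPM per kb, above *Oas1b* (1.17), *Oas1a* (0.898) and *Oas2* (0.759). The lowest 2 were *Oas1g* at 0.343 CPM per kb (0.294 to 0.397) and *Oas3* at 0.114 CPM per kb (0.0978 to 0.132). *Oas3* and *Oas1g* had almost the same reads per library, 22.1 and 22.0, and their difference per kb came from exon lengths of 7069 and 2340 bases.

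*Oas2*, *Oas3*, *Oas1b*, *Oas1g* and *Oas1a* lie in that order within chr5:120730333-120907521 of GRCm38, and *Oasl2* and *Oasl1* lie in chr5:114896936-114937915. Neighbours within the clusters differed in level. *Oas2* was 5.92 times *Oas3*, whose gene ends lie 3244 bases apart on the same strand. *Oas1a* was 2.62 times *Oas1g*. This last ratio is uncertain, since their coding sequences were 96.7% identical and 40.9% of all 100-base stretches of *Oas1a* transcripts also occur in *Oas1g*. How the authors' counting treated reads that fit both genes is not given in the sources used here.

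The 4 IFIT genes encode proteins that bind foreign RNA and block its translation, and they had a median of 1.83 CPM per kb. *Ifit3* was highest at 5.54 CPM per kb (5.31 to 5.78), from 266 reads per library. *Ifit1*, which recognises RNA without a host-type cap, was at 2.56 CPM per kb (2.43 to 2.70). *Ifit3b* was at 1.10 CPM per kb (1.01 to 1.21) and *Ifit2* lowest at 0.368 CPM per kb (0.328 to 0.410). None of these intervals overlapped. The genes lie in the order *Ifit2*, *Ifit3*, *Ifit3b* and *Ifit1* on the plus strand of chr19:34550694-34650009, so the level did not follow the order along the chromosome. *Ifit3* was 5.02 times *Ifit3b*, although their coding sequences were 99.1% identical and, as printed above, their promoters held the same 2 matches in the same surrounding bases. Of 100-base stretches, 31.7% in *Ifit3* and 27.4% in *Ifit3b* occur in the other gene, and the ratio is uncertain for the same reason as that of *Oas1a* to *Oas1g*.

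The MX genes encode dynamin-like GTPases that trap viral nucleocapsids. *Mx2* was at 1.49 CPM per kb (1.40 to 1.57) and *Mx1* at 0.289 CPM per kb (0.253 to 0.327), a ratio of 5.15. They start 72401 bases apart in opposite directions within chr16:97447035-97560900. They share 79.1% of aligned coding bases, and 1.13% of 100-base stretches in *Mx2* also occur in *Mx1*. *Mx2*, too, is a polymorphic pseudogene in the annotation, and whether *Mx1* or *Mx2* gives a working protein in this strain was not examined.

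Genes for Isg15 and for ADP-ribose transfer had the highest median of the effector groups, 5.67 CPM per kb over 6 genes, 5 of them above the median gene. Single effectors of other groups stood higher, with *Bst2* (116 CPM per kb) above all 6. *Parp9* was at 9.58 CPM per kb (9.39 to 9.76) and its binding partner *Dtx3l*, a ubiquitin ligase, at 7.83 CPM per kb (7.68 to 7.99). The pair is divergently transcribed from overlapping first parts on chromosome 16, with starts 681 bases apart, and *Dtx3l* was at 0.818 times the level of *Parp9*. The strand setting of the counting is not stated, so reads from where the genes overlap may belong to either gene. *Isg15* was at 6.21 CPM per kb (5.83 to 6.60), but as the shortest member, with 756 bases of exon, it had only 4.69 CPM. The ADP-ribosyltransferases *Parp12* and *Parp14* were at 5.14 and 2.39 CPM per kb. *Herc6*, the ligase that attaches Isg15 in mouse, was lowest of the group at 0.629 CPM per kb (0.595 to 0.664), or 1.23 with the longest transcript, and 10.3% of its 100-base stretches also occur in the annotated gene *Gm45193*.

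The 6 other effectors had a median of 1.23 CPM per kb (1.90 with the longest transcript) and ranged from *Cmpk2* to *Bst2*. *Bst2* at 116 CPM per kb (114 to 117) was the second highest of all members. *Rsad2* (viperin), which makes an antiviral nucleotide, was at 1.83 CPM per kb (1.74 to 1.91). The nucleotide kinase *Cmpk2*, which lies next to *Rsad2* and is transcribed away from it with 12752 bases between the starts, was at 0.511 CPM per kb (0.466 to 0.560). Unlike *Parp9* and *Dtx3l*, this divergent pair differed 3.57-fold in level. The exonuclease gene *Isg20*, *Samd9l* and the nuclear body gene *Sp100* lay between 0.962 and 1.27 CPM per kb, and between 1.22 and 2.16 with the longest transcript.

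The 10 other interferon-induced genes reached from the second lowest to the highest of all members, with a median of 3.57 CPM per kb and 6 above the median gene. *Lgals9*, which encodes the secreted lectin galectin-9, was at 199 CPM per kb (198 to 201), from an average log2 CPM of 8.74. *Ifi27* followed at 46.3 CPM per kb (45.6 to 47.1). *Lgals3bp*, a secreted glycoprotein, was at 20.8 CPM per kb (20.4 to 21.2) and *Ifi35* at 17.5 CPM per kb (17.1 to 17.9). These 4 genes together with *Bst2* were the top 5 members per kb. *Rtp4*, *Tor3a*, *Xaf1* and *Trim30a* ranged from 0.749 to 5.70 CPM per kb. At the low end were *Phf11d* at 0.286 CPM per kb (0.254 to 0.322) and *Ifi44* at 0.190 CPM per kb (0.167 to 0.215). *Phf11d* could not be separated from *Mx1* by its counting interval. Over the whole order of members, the intervals of 25 of 45 neighbouring pairs overlapped.

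The genes upstream of the members were read from a list of 50 pathway genes. None of 15 genes for type I interferons, *Ifnb1*, *Ifne*, *Ifnk*, *Ifnz* and 11 of the interferon alpha group, had a counted read, which allows a level of up to 0.0136 CPM each (the limit taken here for a count of 0, 3 counts over all 8 libraries; the upper end of the exact interval is 0.0168 CPM). That limit covers counted reads only. How reads that fit several genes were treated is not given, and sequence shared among these genes was not examined. *Ifnl2* and *Ifnl3*, which encode type III interferons, also had 0 reads, and their receptor gene *Ifnlr1* was at 0.0271 CPM per kb. By contrast all 4 receptor and kinase genes of the type I pathway stood above the median gene, from *Tyk2* at 3.18 to *Ifnar2* at 24.6 CPM per kb. Transcription factors outside the list ranged from *Irf8* at 0.746 to *Irf3* at 22.5 CPM per kb. Genes that act in sensing upstream of interferon ranged from *Tlr9* at 0.0157 to *Mavs*, the adaptor of the RNA helicases, at 23.7 CPM per kb. In the list of feedback and Isg15 attachment, *Socs1* was lowest at 0.0701 and *Ube2l6*, the conjugating enzyme for Isg15, highest at 26.9 CPM per kb, so that this enzyme stood above *Isg15*, *Herc6* and *Usp18*. Among other interferons and receptors, *Ifngr1* was highest at 5.77 and *Ifng* lowest of those with reads at 0.0174 CPM per kb.

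**Figure D4:**
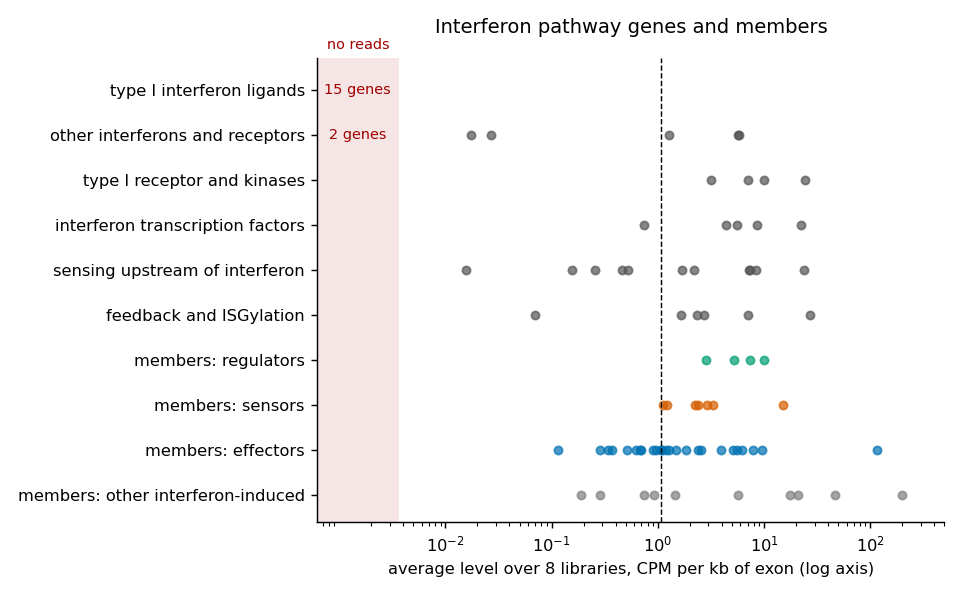
Average level of the interferon pathway genes by list (grey) and of the members by role (colours), x axis CPM per kb of exon on a log axis, 1 point a gene, with the median gene as a dashed line. The shaded band at the left counts genes without reads, which have no level on this axis: 15 type I ligands and 2 other ligands (*Ifnl2*, *Ifnl3*); all 46 members lie to the right of 0.1 CPM per kb.

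Markers of cells that could supply part of these transcripts were read the same way, and their part in the levels of the members was not tested. Kupffer cell and macrophage markers had reads in 8 of 8 genes, from *Adgre1* at 1.45 to *Clec4f* at 33.2 CPM per kb, and 8 of 8 stood above the median gene. Endothelial markers ranged from *Kdr* at 1.27 to *Clec4g* at 15.4 CPM per kb, stellate cell markers from *Reln* at 0.963 to *Dcn* at 17.1 CPM per kb, and cholangiocyte markers from *Krt7* at 0.176 to *Krt19* at 2.0 CPM per kb. Plasmacytoid dendritic cells, known for abundant interferon release, had 4 markers between 0.0154 (*Ccr9*) and 0.114 (*Cox6a2*) CPM per kb. Markers of T and NK cells (*Ncr1* 0.0265 to *Nkg7* 0.355), B cells (*Ms4a1* 0.0237 to *Cd79a* 0.210) and neutrophils (*Ly6g* 0.00488 to *S100a9* 0.808) were all below the median gene per kb. *Lgals9*, *Bst2* and *Ifi27* stood above all 8 macrophage markers, and all 46 members lay below the lowest of the 6 hepatocyte markers.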

How the data were processed

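Liver RNA of 4 wild-type and 4 V227A mice was analysed. Stranded poly-A libraries were sequenced by the authors, who used Trimmomatic, FastQC, RNA STAR on GRCm38 (mm10), featureCounts and edgeR; versions, annotation, strand setting and the treatment of ambiguous reads are not given in the sources used here. The authors' deposited table holds the average log2 CPM of each gene over all libraries. It also holds the log2 fold change, F, p-value and FDR of their own comparison, which were not used. With 0 columns of values per library, the genotype tests planned were not run and no n or SD can be given.

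Members and lists were chosen with earlier results of these data known. All members are named, with full values for the OAS, IFIT and MX families, regulators, sensors and the 10 highest and 10 lowest per kb; pathway and marker genes are named where highest, lowest or without reads in their list, and *Rigi*, *Ifnlr1* and *Uba7* after their values were seen. Some pathway genes are not reported here.

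The 8242 genes at the lowest average log2 CPM, -3.78, were taken as without reads. That value and a prior count of 2, the default of the authors' tool, give the mean effective library size, though not that of single libraries, and each gene's reads and CPM after the prior count was taken off. The step was tested on simulated data of 4000 genes: among the 2926 with at least 1 read per library, recovered over true reads had a 5th and 95th percentile of 0.982 and 1.02. Exon lengths (union of exons, GENCODE vM21 of GRCm38) were known for 94.8% of genes with reads. RefSeq promoters (GRCm38.p6) were taken 1 per gene, at the start site farthest upstream. Python 3.11.15, pandas 2.3.3, numpy 2.4.6, scipy 1.17.1, Biopython 1.88 and matplotlib 3.10.9 were used.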

Additional observations from a re-analysis of the deposited data

How the results depend on the processing

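Of 18 values recomputed under alternatives for 7 results, 16 stayed within the limits set for them, a 95% interval for medians and shares (the whole range for the 4 regulators and for the 7 sensors) and a factor of 1.5 for counts: the medians over all members and by role with the length of the longest transcript or with the prior count kept, the count of members above the median gene with CPM, with the longest transcript (31) or with the prior count kept (31), and the motif share before the start site (36.4%), in any window of a gene or beside genes with reads only, these last 2 chosen after seeing the data. Within that interval the effector median still moved by more than 1.5 times, from 1.20 to 1.89 CPM per kb with the longest transcript. The order of the roles by median was the same with the longest transcript and with the prior count kept, but in CPM without length sensors (16.9) stood above the other interferon-induced genes (8.87). Of the remaining results, 16 rather than 32 members stood above the median gene when the reference was genes with an average log2 CPM of at least 0, which follows from the higher median of that reference, 3.42 CPM per kb. The motif followed by CT left 21.2% of member promoters, since it is a subset of the shorter motif. Taking any window could not lower the member share. Taking genes with reads only could not change it, since all members had reads. These last 2 values therefore do not show that the share is stable.

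No paired analysis was possible because the deposited table holds no values per library. For the same reason the genotype test, the replicate block, the other count tool and leaving out each replicate were not run. The intervals cover counting error and not the spread between mice, and the low members rest on few reads, 22.0 per library for *Oas1g*.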

Other observations

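Outside the list, 66 genes also held GAAANNGAAACT in the promoter, and 44 of them had reads in these livers, 19 above the median gene per kb. Among all genes listed, 18937 of 27179 had reads, and their median by definition has as many genes above as below. The 5 with the highest levels, named after their values were seen, were *Ifitm3* at 490 CPM per kb, *Apol9b* at 60.0, *H2-T22* at 20.0, *Tgfbi* at 10.1 and *Apol9a* at 8.49 CPM per kb. *Ifitm3*, which keeps viruses from fusing with endosomal membranes, stood above every one of the 46 members, and its promoter held 2 matches to the shorter motif. The group also held 4 genes of the Gbp family, GTPases that act against intracellular pathogens, likewise picked after their values were seen: *Gbp7* was at 1.77, *Gbp2* at 1.16, *Gbp3* at 1.08 and *Gbp5* at 0.118 CPM per kb. The sensor gene *Rigi*, which RefSeq lists here as *Ddx58*, held the longer motif as well.

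Isg15 attachment needs an activating, a conjugating and a ligating enzyme, and their genes differed widely in these livers. *Ube2l6*, the conjugating enzyme, was at 26.9 CPM per kb, *Uba7*, the activating enzyme, at 1.66 and *Herc6*, the ligase, at 0.629 CPM per kb, beside *Isg15* at 6.21 and the protease *Usp18* at 2.82 CPM per kb.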
